A study of Rattus norvegicus with 16 samples.

Results

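Pericytes and vascular smooth muscle cells are the mural cells that wrap small and larger blood vessels. Their genes were followed here in sorted carotid body cells. The set comprised 8 genes: the contractile and cytoskeletal genes Acta2, Tagln, Myl9, Des and Myh11, and the surface genes Mcam, Pdgfrb and Cspg4. For each gene the probe that the array annotation assigns to that gene alone was taken, choosing the brightest over all 16 arrays where there were several. This gave 1 probe for each of 7 genes, out of 18166 genes with such a probe. Acta2, which encodes smooth muscle alpha-actin, was listed with no such probe and was not analysed here.

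Carotid bodies of Wistar rats aged 9 to 11 weeks, from both sides mixed, were enzymatically dispersed, and the cells were sorted by flow cytometry after staining for HNK-1, a sugar epitope of neural crest derived cells. Cells positive for HNK-1 were collected as neuroblasts and negative cells as glomus cells, the oxygen-sensing cells of the organ. Rats had been kept in ambient air (normoxia) or in hypoxic chambers for 3 days (hypoxia), which gave 4 groups of 4 arrays: normoxic glomus, normoxic neuroblast, hypoxic glomus and hypoxic neuroblast. No agent or allele beyond the Wistar background is named in the labels. The labels name no stain for vascular cells, and leave unsaid if each of the 4 samples in a group stands for its own animals, so p-values measure the spread between these samples, which may be technical. No date or batch of the arrays is labelled, so batch and oxygen cannot be told apart.

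The carotid body is densely vascular, and its capillaries run among clusters of glomus cells. Mural cells contract when myosin light chain is phosphorylated, and they are recruited to vessels when platelet-derived growth factor B from endothelium binds the receptor encoded by Pdgfrb. Smooth muscle contractile genes are controlled by serum response factor, which binds a short element called the CArG box, together with its cofactors of the myocardin family.

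Promoters from RefSeq (build GRCr8) were matched for 3 of the 8 genes, Acta2, Des and Cspg4. The 250 bases before the start were searched on both strands for the strict CArG box CCWWWWWWGG (W being A or T). The E-box CANNTG, another element of muscle promoters, was searched too. Boxes that differ from these letters or lie outside the window cannot be found this way. Neither motif overlapped the other in the promoters shown. None of the 3 promoters held a strict CArG box, which 501 of all 33469 promoters (1.5%) held, and 2 of the 3 held an E-box, against 65.5% of all promoters. The Des promoter is shown because Des passed the test in both hypoxia comparisons below, with its E-box, starting 79 bases before the start, in capitals (chr9:84299376-84299625, plus strand). The promoter of Srf, the gene of serum response factor, is shown for what a CArG box looks like, with its 2 boxes in capitals (chr9:21923826-21924075, plus strand). These matches describe letters in a window and no binding.
Des: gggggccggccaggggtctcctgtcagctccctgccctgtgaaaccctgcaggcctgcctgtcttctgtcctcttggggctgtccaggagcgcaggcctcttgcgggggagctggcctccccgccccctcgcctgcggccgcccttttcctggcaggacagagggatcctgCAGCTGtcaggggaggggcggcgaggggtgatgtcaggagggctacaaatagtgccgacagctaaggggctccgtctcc
Srf: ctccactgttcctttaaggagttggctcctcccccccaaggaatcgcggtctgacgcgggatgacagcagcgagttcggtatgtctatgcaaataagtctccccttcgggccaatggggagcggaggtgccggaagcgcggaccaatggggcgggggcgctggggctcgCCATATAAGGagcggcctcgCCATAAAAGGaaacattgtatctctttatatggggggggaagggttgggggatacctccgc

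Values are on the log2 scale of the deposited table, so a difference of 1 is a 2-fold change. Group values are means ± SD (n = 4) and differences carry the standard error from limma, which was fitted to all 30429 probes at once. A probe passed at a Benjamini-Hochberg adjusted p under 0.05 over all probes. The genes are described from their own probe only, and levels of different probes are not set against each other beyond a percentile of brightness. In these bulk arrays, fewer cells of a type and less RNA per cell cannot be told apart.

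Th, which encodes tyrosine hydroxylase and marks glomus cells, was high in both populations and so cannot check their labels. It lay between 9.40 and 12.76 on all 16 arrays, lowest on hypoxic neuroblast array 1. That array also had the highest median of all probes (4.94, against 4.40 to 4.77 on the others) and the lowest mean correlation with its group (0.914, against 0.949 or more). Tagln, Myl9 and the mean of the fibroblast markers were highest of their groups on 2 other arrays, normoxic neuroblast 2 and hypoxic neuroblast 4. On the latter Myl9 was only a little above the next array (6.51 against 6.13), and Des and Myh11 were below the mean of their group. Lum, an extracellular matrix proteoglycan gene of fibroblasts, was at 9.16 and 8.52 there, against 4.51 to 5.65 and 3.96 to 7.29 on the other arrays of these groups. The mean of 18 fibroblast markers reached 8.17 on normoxic neuroblast 2 and 6.75 on hypoxic neuroblast 4, the highest of their groups. The next values of these groups were 6.315 and 6.25. Results that rest on these 2 arrays are given with and without them.

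**Figure D1:**
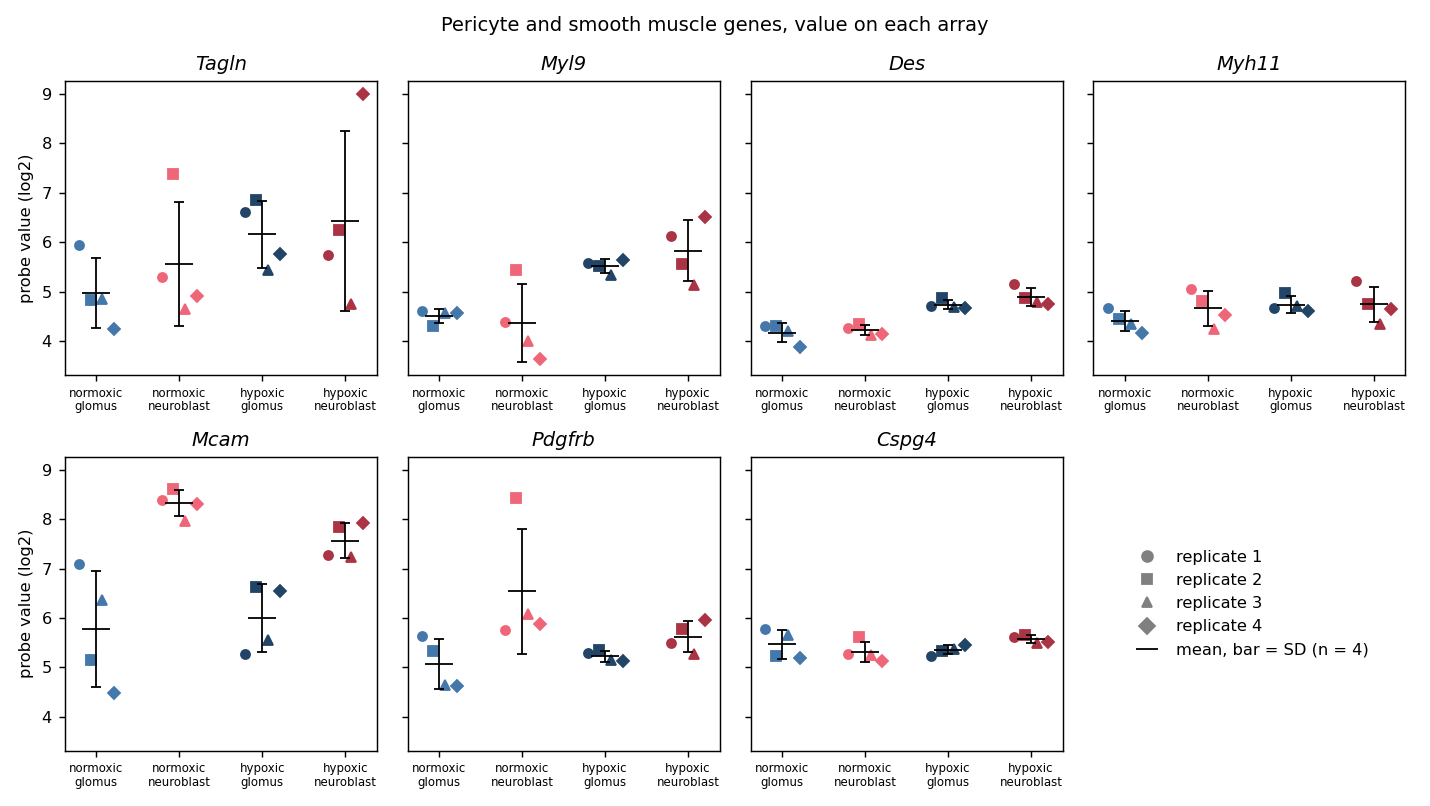
Probe values (log2, y axis) of the 7 measured genes on every array, by group (x axis); marker shapes give the replicate, and bars give mean and SD (n = 4). Mcam lies higher in neuroblasts, Des and Myl9 higher in hypoxia, and Tagln and Pdgfrb have single high arrays (8.99 in hypoxic neuroblast 4 and 8.42 in normoxic neuroblast 2).

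In normoxia, the comparison of neuroblasts with glomus cells showed a large difference in 1 of the 7 genes, Mcam, against 1.82% of all probes. The 4 contractile genes did not pass. The median difference over the 7 genes was 0.26, against -0.005 over all probes, and it was 0.005 without normoxic neuroblast 2, 0.126 without normoxic neuroblast 1 and 0.396 without normoxic neuroblast 3. The surface genes are taken first.

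Mcam encodes CD146, an adhesion molecule of pericytes, smooth muscle and endothelium. On the normoxic glomus arrays it was at 7.10, 5.14, 6.36 and 4.49, and on the normoxic neuroblast arrays at 8.39, 8.61, 7.97 and 8.30. Every neuroblast value lay above every glomus value, and the glomus values were spread far more widely. The means were 8.32 ± 0.27 and 5.77 ± 1.18 (SD, n = 4), a difference of 2.545 ± 0.44 (limma adjusted p = 0.00312). In the alternative fits that difference ranged from 2.12 to 2.99 and passed in each of the 25. Among 14 endothelial markers the median difference between these groups was -0.78, and 1 passed, against the 1.82% of all probes (Cldn5, a tight junction gene, -3.65). Of 17 macrophage markers 5 were lower in normoxic neuroblasts and none higher.

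Under hypoxia, Mcam was at 5.27, 6.62, 5.55 and 6.54 in glomus cells and at 7.28, 7.83, 7.23 and 7.92 in neuroblasts. The groups again did not overlap, and the difference of 1.57 ± 0.44 did not pass (limma adjusted p = 0.174). None of the 7 genes passed in this comparison by limma, while 1 had an unadjusted p under 0.05 and 0.283% of all probes passed. The median over the 7 genes was 0.27, against 0.04 over all probes, and it was 0.52 without hypoxic neuroblast 3. Of the macrophage markers 7 were lower in hypoxic neuroblasts than in hypoxic glomus cells. From highest to lowest, the Mcam means ran from normoxic neuroblasts through hypoxic neuroblasts (7.57 ± 0.36) and hypoxic glomus cells (5.995 ± 0.69) to normoxic glomus cells. The 2 neuroblast groups did not overlap in range, but their difference did not pass (-0.75 ± 0.44, adjusted p = 0.186), nor did that of the 2 glomus groups (0.22 ± 0.44, adjusted p = 0.753). With only the groups compared in the fit, the fall of Mcam in hypoxic neuroblasts passed (adjusted p = 0.0414).

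Pdgfrb encodes the receptor for platelet-derived growth factor B and is also made by fibroblasts. It was at 5.63, 5.34, 4.65 and 4.62 on the normoxic glomus arrays and at 5.75, 8.42, 6.09 and 5.88 on the normoxic neuroblast arrays. In hypoxia it was at 5.29, 5.35, 5.14 and 5.13 in glomus cells and at 5.49, 5.78, 5.27 and 5.96 in neuroblasts. The 2 normoxic groups did not overlap, with a difference of 1.475 ± 0.43 that did not pass (limma adjusted p = 0.113). Normoxic neuroblast 2 was the high array, and without it the difference was 0.85 ± 0.24 (adjusted p = 0.133). With arrays weighted by their quality it passed at 1.56 (adjusted p = 0.0304). The hypoxia difference in neuroblasts was -0.91 ± 0.43 (adjusted p = 0.108), and -0.28 without that array.

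Cspg4 encodes the NG2 proteoglycan, a surface marker of pericytes. Of the 7 genes it varied the least over the 16 arrays (SD 0.197). It was at 5.77, 5.24, 5.66 and 5.19 in normoxic glomus cells and 5.27, 5.61, 5.26 and 5.13 in normoxic neuroblasts. In hypoxia the values were 5.24, 5.34, 5.38 and 5.46 in glomus cells and 5.62, 5.65, 5.50 and 5.51 in neuroblasts. The hypoxic groups did not overlap, but no Cspg4 difference passed, and the 4 differences between pairs of groups ran from -0.15 to 0.25.

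**Figure D2:**
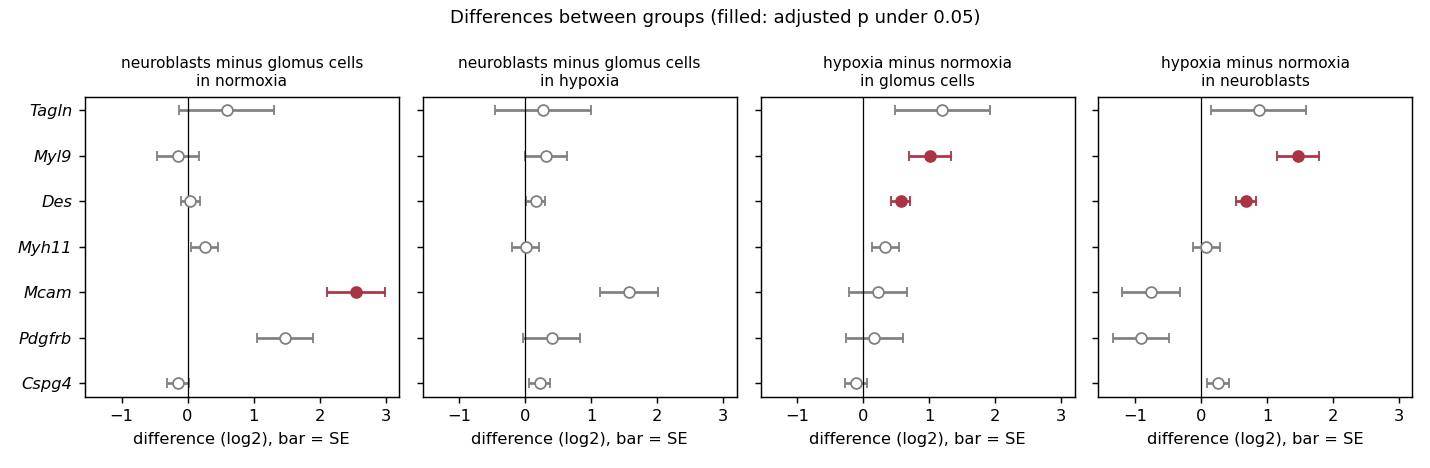
Differences (log2, x axis) of the 7 genes (y axis) in the 4 comparisons of groups, as points with limma standard errors; filled points passed at an adjusted p under 0.05. Mcam passed in normoxia (2.545), and Des and Myl9 passed in both hypoxia comparisons.

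The comparison of hypoxia with normoxia asks how 3 days of low oxygen change each population. Des and Myl9 rose in both populations, and the other 5 genes passed in neither. In glomus cells 2 of 7 genes passed, against 18.9% of all probes, and in neuroblasts 2 of 7, against 32.1%, so these counts are close to the background. The median over the 4 contractile genes was 0.79 in glomus cells and 0.77 in neuroblasts, where it was 0.41 without hypoxic neuroblast 4. The median over the 3 surface genes was -0.75 in neuroblasts, and -0.28 without normoxic neuroblast 2. In glomus cells it was 0.17, but without normoxic glomus 1, 2, 3 or 4 or hypoxic glomus 2 or 4 it ranged from -0.20 to 0.36. The median over all probes was 0.17 in glomus cells and 0.25 in neuroblasts. The median probe of the table as deposited thus lay higher in hypoxia, and the values below should be read against this. It was no rise of all genes, since 2852 of the probes passing rose and 2892 fell in glomus cells. In neuroblasts 5596 rose and 4159 fell.

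Des encodes desmin, the intermediate filament of muscle and of many pericytes. Its probe had a mean of 4.51 over all arrays, at percentile 46.8 of all probes. In glomus cells it was at 4.30, 4.31, 4.21 and 3.88 in normoxia and at 4.71, 4.87, 4.70 and 4.68 in hypoxia. In neuroblasts the values were 4.27, 4.34, 4.12 and 4.15 in normoxia and 5.15, 4.87, 4.80 and 4.76 in hypoxia. All 8 hypoxic values lay above all 8 normoxic ones. Des rose by 0.565 ± 0.15 in glomus cells (limma adjusted p = 0.0126) and by 0.675 ± 0.15 in neuroblasts (adjusted p = 0.00258). The rise in neuroblasts passed in each of 25 alternative fits (0.39 to 0.76, highest adjusted p = 0.0366). The rise in glomus cells did not pass after centring each array on its median (0.35, adjusted p = 0.0802), after quantile normalization (0.34, adjusted p = 0.0931) or without normoxic glomus 4 (0.47, adjusted p = 0.057).

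Myl9 encodes the regulatory light chain of smooth muscle and non-muscle myosin. In glomus cells it was at 4.61, 4.31, 4.56 and 4.56 in normoxia and at 5.59, 5.52, 5.33 and 5.65 in hypoxia, with no overlap. In neuroblasts it was at 4.39, 5.44, 4.01 and 3.63 in normoxia and at 6.13, 5.56, 5.13 and 6.51 in hypoxia, where only normoxic neuroblast 2 reached into the hypoxic range. Myl9 rose by 1.01 ± 0.32 in glomus cells (limma adjusted p = 0.0346) and by 1.465 ± 0.32 in neuroblasts (adjusted p = 0.00242). In neuroblasts it passed in each of 25 alternative fits (1.18 to 1.82, highest adjusted p = 0.0274). In glomus cells it did not pass after centring (0.80, adjusted p = 0.10) or quantile normalization (0.88, adjusted p = 0.0842), nor without normoxic glomus 1, 2, 3 or 4 or hypoxic glomus 1, 2 or 4 (0.95 to 1.05, adjusted p = 0.0531 to 0.084). With only the 8 glomus arrays in the fit, the standard error was 0.14 and the adjusted p = 0.00053.

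Tagln encodes transgelin, an actin-binding protein of smooth muscle and activated fibroblasts. It was at 5.94, 4.83, 4.85 and 4.24 in normoxic and at 6.61, 6.85, 5.43 and 5.76 in hypoxic glomus cells. In neuroblasts it was at 5.29, 7.39, 4.65 and 4.91 in normoxia and at 5.74, 6.24, 4.75 and 8.99 in hypoxia. The groups overlapped in both populations, and the high arrays were normoxic neuroblast 2 and hypoxic neuroblast 4. The difference in glomus cells was 1.20 ± 0.72 (limma adjusted p = 0.268). With both of those arrays left out it had the same size and passed (± 0.39, adjusted p = 0.0443), as it did with only the 8 glomus arrays in the fit (adjusted p = 0.0403). In neuroblasts the difference was 0.87 ± 0.72 (adjusted p = 0.346), 0.02 without hypoxic neuroblast 4 and 1.48 without normoxic neuroblast 2.

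Myh11 encodes the smooth muscle myosin heavy chain, the most specific gene of differentiated smooth muscle. Its probe had a mean of 4.64 over all arrays, at percentile 49.4 of all probes. It was at 4.67, 4.44, 4.35 and 4.17 in normoxic and at 4.67, 4.98, 4.71 and 4.60 in hypoxic glomus cells. In neuroblasts it was at 5.06, 4.82, 4.25 and 4.53 in normoxia and at 5.21, 4.76, 4.35 and 4.65 in hypoxia. The groups overlapped, and neither the difference in glomus cells (0.33 ± 0.21, limma adjusted p = 0.281) nor that in neuroblasts (0.08 ± 0.21, adjusted p = 0.777) passed. Tagln and Myh11 did not share their highest hypoxic neuroblast array, which was replicate 4 for Tagln and replicate 1 for Myh11.

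Whether the hypoxia response differed between the populations was tested by the interaction. By limma 0 of the 7 genes passed and 0 had an unadjusted p under 0.05, where 0.0789% of all probes passed. The largest were Pdgfrb (-1.08 ± 0.61, adjusted p = 0.801) and Mcam (-0.975 ± 0.62, adjusted p = 0.825). For Des the interaction was 0.11 ± 0.21 and for Myl9 0.45 ± 0.45.

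Covariation within the groups was examined next. Each array's deviation from the mean of its group was taken for each gene, and the 21 pairs were correlated over the 16 arrays, with exact permutation of the arrays within groups. All 21 Pearson correlations were positive, from 0.197 (Des with Tagln) to 0.796 (Des with Myh11), with a median of 0.424. Pairs of other genes were not correlated for comparison. Within the 8 normoxic arrays 0 of the 21 were negative, and within the 8 hypoxic arrays 5 were, the lowest being Tagln with Cspg4 (-0.301), Des with Tagln (-0.199) and Des with Pdgfrb (-0.138). After Benjamini-Hochberg adjustment over the 21 pairs, 5 passed by Pearson's r and 2 by Spearman's rho (two-sided).

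Des and Myh11 had r = 0.796 and rho = 0.888 (exact permutation, adjusted p = 0.0069 and 0.00468). Their r was 0.701 within the 8 normoxic and 0.911 within the 8 hypoxic arrays, and 0.767 without the 2 arrays farthest from the median of Des. Tagln and Pdgfrb had r = 0.702 and rho = 0.706 (exact permutation, adjusted p = 0.0069 and 0.0164), with 0.917 within normoxia, 0.918 within hypoxia and 0.667 without the 2 farthest arrays. These 2 pairs are the ones that passed by both measures. Des with Myh11 did not pass after centring each array or after quantile normalization. The Des and Myh11 probes were both near the middle of all probes in brightness. Whether this pair followed the brightness of the arrays was not tested.

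Myl9 with Tagln (r = 0.785, rho = 0.59), Mcam with Cspg4 (r = 0.771, rho = 0.735) and Mcam with Tagln (r = 0.474, rho = 0.576) passed by Pearson's r alone, each with an exact permutation adjusted p of 0.0421 against 0.194, 0.125 and 0.102 by rho. Without the 2 farthest arrays their r was 0.751, 0.583 and 0.405. Within normoxia and within hypoxia these r were 0.835 and 0.792, 0.866 and 0.467, and 0.594 and 0.406. None of the 21 pairs passed within the 8 normoxic or within the 8 hypoxic arrays alone. With 8 arrays the possible orders are so few that a pair could hardly pass, so this carries little information. A single pair passed after centring or after quantile normalization (Tagln with Pdgfrb in each), and 1 without normoxic neuroblast 2 and hypoxic neuroblast 4 (Des with Myh11). Leaving out single arrays gave 2 to 5 pairs: 2 without normoxic glomus 1, normoxic neuroblast 1, 2 or 3, hypoxic glomus 3 or hypoxic neuroblast 3, and 3 without normoxic glomus 2, 3 or 4.

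**Figure D3:**
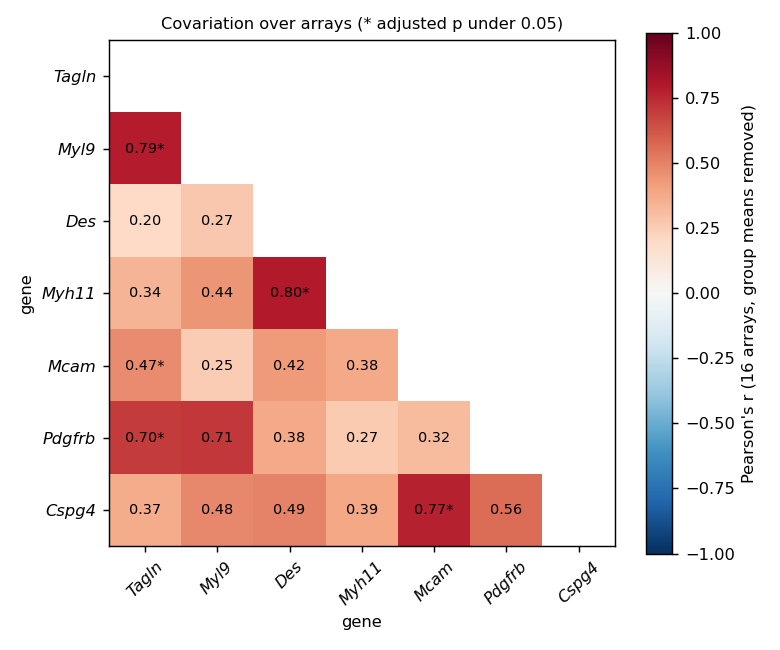
Pearson's r between the 7 genes (both axes) over 16 arrays after removing group means; colour gives r from -1 to 1 and asterisks mark an adjusted p under 0.05. All 21 values are positive, and the strongest are Des with Myh11 (0.796), Myl9 with Tagln (0.785) and Mcam with Cspg4 (0.771).

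The genes were then set against the mean deviation of 12 other gene lists, which gave 84 correlations, of which 19 passed by Pearson's r over these 84. Mcam followed the endothelial markers (r = 0.893, rho = 0.90, exact permutation adjusted p = 0.0304 and 0.0381). This r was 0.959 within normoxia, 0.711 within hypoxia and 0.797 without the 2 farthest arrays. Both varied most on the glomus arrays. On the hypoxic neuroblast arrays Mcam deviated by -0.285, 0.265, -0.335 and 0.355, and the list by 0.157, 0.024, -0.148 and -0.033. On the normoxic neuroblast arrays these were 0.0725, 0.2925, -0.3475 and -0.0175, and 0.0102, 0.3095, -0.1241 and -0.1955. The correlation within each population was not tested. Mcam also passed by both measures with 3 lists drawn up for mural cells, of which the signalling list shares Tek and Eng with the endothelial list. These were the signalling genes of mural cells (r = 0.746, rho = 0.768, exact permutation adjusted p = 0.0258 and 0.0219), other smooth muscle contractile genes (r = 0.513, rho = 0.55, adjusted p = 0.0304 for each) and other pericyte markers (r = 0.498, rho = 0.553, adjusted p = 0.0304 and 0.0219). Without the 2 farthest arrays these r were 0.613, 0.462 and 0.398. Cspg4 also followed the endothelial markers (r = 0.835, rho = 0.841, exact permutation adjusted p = 0.0386 and 0.0372), with 0.938 within normoxia, 0.269 within hypoxia and 0.747 without the 2 farthest arrays. With the mural signalling genes it had r = 0.824 and rho = 0.776 (exact permutation adjusted p = 0.0304 and 0.0381), with 0.913 within normoxia, 0.209 within hypoxia and 0.524 without the 2 farthest arrays. The r of different lists were not tested against each other. The lists also share genes, such as Notch3, Heyl and Angpt1 in the signalling and pericyte lists, so their r are not separate evidence.

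Tagln and Myl9 followed the fibroblast markers. For Tagln r was 0.767 and rho 0.721 (exact permutation adjusted p = 0.0304 and 0.0372), with 0.886 within normoxia, 0.907 within hypoxia and 0.615 without the 2 farthest arrays. For Myl9 r was 0.804 and rho 0.759 (exact permutation adjusted p = 0.0459 and 0.0372), with 0.798 and 0.949 within conditions and 0.602 without the 2 farthest arrays. Tagln also passed with other smooth muscle contractile genes (r = 0.806, rho = 0.735, exact permutation adjusted p = 0.0304 and 0.0372) and with the mural signalling genes (r = 0.676, rho = 0.729, adjusted p = 0.0304 and 0.0282), with 0.567 and 0.765 without the 2 farthest arrays. With the endothelial markers Myl9 passed by Pearson's r alone (r = 0.346, rho = 0.425, exact permutation adjusted p = 0.0386 and 0.121), and Tagln passed by neither (r = 0.425, rho = 0.50, adjusted p = 0.0539 and 0.121). Pdgfrb had r = 0.885 and rho = 0.668 with the fibroblast markers and did not pass (exact permutation adjusted p = 0.0539 and 0.115). It passed by Pearson's r alone with other smooth muscle contractile genes (r = 0.808, rho = 0.756, exact permutation adjusted p = 0.0356 and 0.0652, and 0.665 without the 2 farthest arrays). Myh11 passed by Pearson's r alone with the neuron markers (r = -0.772, rho = -0.697, exact permutation adjusted p = 0.0304 and 0.0652) and the endothelial markers (r = 0.499, rho = 0.512, adjusted p = 0.0493 and 0.121), with -0.587 and 0.621 without the 2 farthest arrays. Des went against the glomus cell markers (r = -0.742, rho = -0.724, exact permutation adjusted p = 0.0349 and 0.0380) and the neuron markers (r = -0.75, rho = -0.771, adjusted p = 0.0304 and 0.0282). Without the 2 arrays farthest for Des these r were -0.517 and -0.654, and within normoxia and hypoxia they were -0.831 and -0.804, and -0.686 and -0.883. Hypoxic neuroblast 1, the array with the highest median of all probes (4.94), had the highest Des (5.15) and Myh11 (5.21). The means of the glomus cell list (8.51) and the neuron list (7.50) were lowest on that array. Whether array brightness or quality carries the correlations of Des and Myh11 with these lists was not tested.

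**Figure D4:**
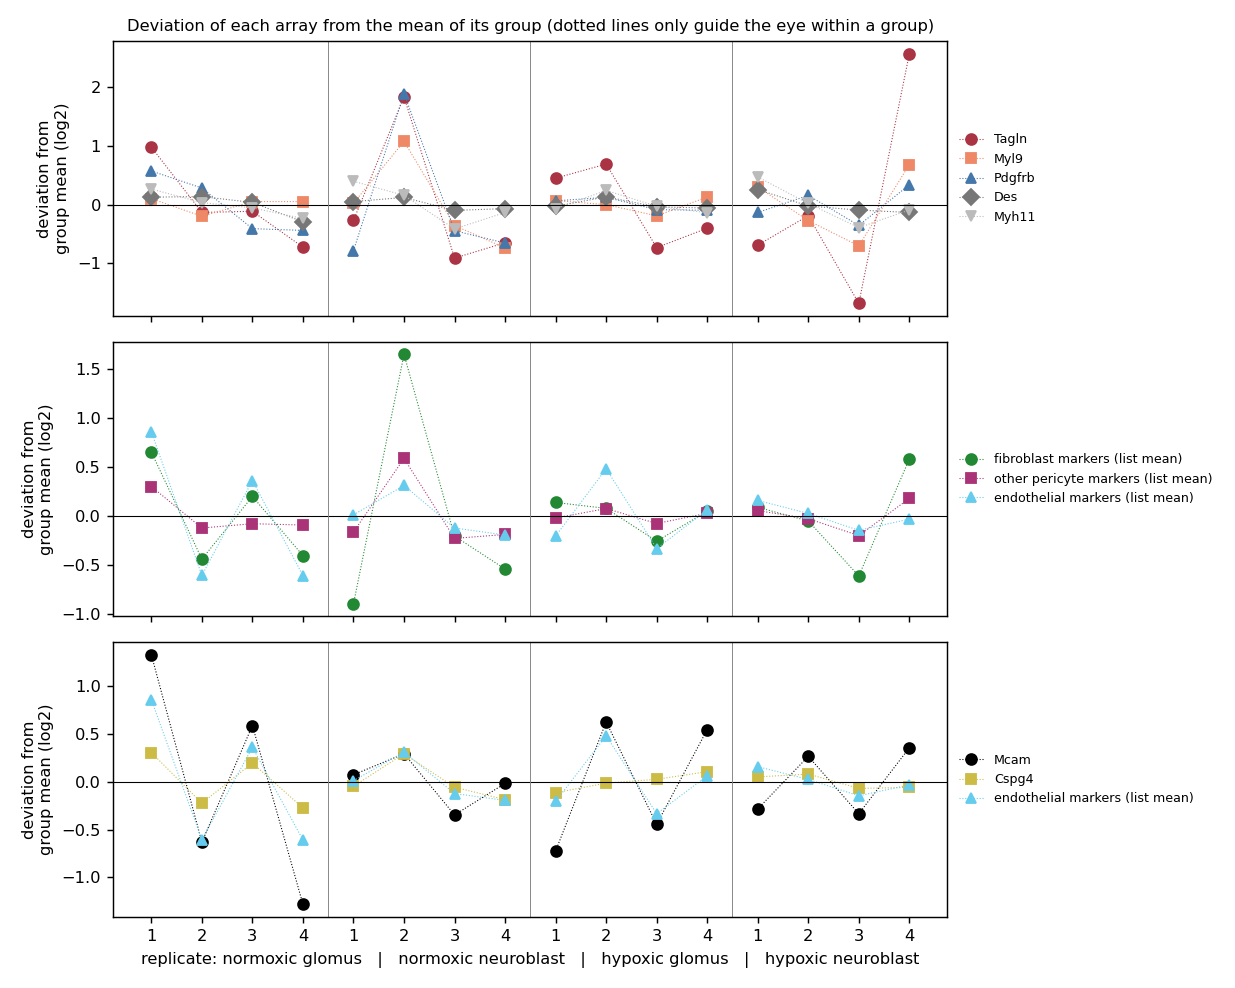
Deviation of each array from the mean of its group (log2, y axis) by group and replicate (x axis): contractile genes and Pdgfrb (top), means of marker lists (middle), Mcam and Cspg4 with the endothelial list (bottom). Tagln and the fibroblast list peak on normoxic neuroblast 2 and hypoxic neuroblast 4. Mcam follows the endothelial list mainly on the glomus arrays, highest on normoxic glomus 1.

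By list means, no list is at 0 anywhere, since the lowest value of the whole table is 0.87. The counts below are to be read against the share of all probes that passed. That share was 1.82% between the populations in normoxia, and with hypoxia 18.9% in glomus cells and 32.1% in neuroblasts. The fibroblast list (18 of 20 genes measured) ranged from 5.30 to 6.39 in normoxic glomus cells, 5.62 to 8.17 in normoxic neuroblasts, 5.55 to 5.95 in hypoxic glomus cells and 5.55 to 6.75 in hypoxic neuroblasts. Of its genes 1 was higher and 1 lower in normoxic neuroblasts than in glomus cells, and with hypoxia 1 fell in glomus cells and 2 fell in neuroblasts (Fbln1 by 0.915 and Gsn by 1.03), while none rose in either. The endothelial list (14 of 18) ranged from 4.69 to 6.15, 4.09 to 4.60, 5.30 to 6.11 and 4.74 to 5.05 in the same order. With hypoxia 2 of its genes rose in glomus cells (Cldn5 by 1.77 and Emcn by 1.25) and 2 in neuroblasts (Cldn5 by 2.60 and Vwf by 0.76). The macrophage list (17 of 17) ranged from 4.63 to 6.31, 3.90 to 4.42, 5.53 to 6.05 and 4.25 to 4.79. With hypoxia 3 of its genes rose in glomus cells (Aif1 by 2.18, Tyrobp by 1.89 and C1qc by 1.49), and by limma none passed in neuroblasts, where 2 had an unadjusted p under 0.05. The list of type II and glial cells, the supporting cells of the organ (14 of 16), ranged from 5.12 to 5.70, 5.44 to 6.16, 5.74 to 5.985 and 6.18 to 6.95. With hypoxia 3 of its genes rose and 1 fell in glomus cells, and 6 rose and none fell in neuroblasts, beside the rises of Des and Myl9. The part of these cells in the values of the 7 genes was not tested.

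The genes most like each pattern were taken from 10934 genes of at least median brightness, by Pearson's r over the 16 arrays with group means removed. The mean of the 4 measured contractile genes mostly followed Tagln (r = 0.95 with that mean) and Myl9 (0.889), whose SD within groups were 1.21 and 0.504, more than Myh11 (0.568) and Des (0.413), with SD of 0.284 and 0.15. Most like this mean were Lpp, a focal adhesion gene of smooth muscle (0.928), Ifitm1 (0.91), Srpx (0.895), Lum (0.882), Ccdc80 (0.877) and Zng1a (0.874). Most like Mcam were Plvap, the gene of the diaphragms of fenestrated endothelium (0.898), Cdh5, the endothelial cadherin (0.883), Cd4 (0.876), Plxna2 (0.873), Vwf, the von Willebrand factor gene (0.871), and Igfbp7 (0.856). Most like Pdgfrb were Cdh11, a mesenchymal cadherin (0.926), Igfbp5 (0.925), C1r (0.925), Ifitm3 (0.919), Col12a1 (0.919) and Fn1, the fibronectin gene (0.912). These are the highest of many correlations and carry no test.

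Other genes of the pathway were read from lists. Between the populations 1.82% of all probes passed in normoxia and 0.283% in hypoxia. Among 22 measured pericyte markers outside the 7 genes, 1 was higher and 3 were lower in neuroblasts than in glomus cells in normoxia, and none passed in hypoxia by limma, where 2 had an unadjusted p under 0.05. Gucy1a1, a subunit of the nitric oxide receptor, was the one higher (4.74 ± 0.61 against 3.50 ± 0.16, difference 1.24 ± 0.26, adjusted p = 0.0168). Cox4i2, an isoform of a cytochrome oxidase subunit, was lower (-1.19 ± 0.17, limma adjusted p = 0.000591), and so was Ndufa4l2 (-1.0025 ± 0.21, adjusted p = 0.0168). They were at 10.99 and 11.45 in normoxic glomus cells and at 9.80 and 10.45 in normoxic neuroblasts. Thy1, which is also on the fibroblast list, was lower too (11.18 ± 0.27 against 11.98 ± 0.15, limma adjusted p = 0.0223). The lower genes were thus bright in both populations, where the highest value of the whole table is 13.33. Which cells these values come from was not tested. With hypoxia 2 rose and 2 fell in glomus cells and 3 rose and 3 fell in neuroblasts. Of all probes 18.9% and 32.1% passed there, so these counts are close to the background.

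Rgs5, a regulator of G protein signalling that marks pericytes, was at 12.77 ± 0.09 in normoxic and 11.78 ± 0.15 in hypoxic glomus cells and fell by 0.98 (adjusted p = 0.000275), and in neuroblasts it fell by 0.88 (adjusted p = 0.00038). Rgs5 also belongs to the glomus cell list. Cox4i2 rose by 0.86 ± 0.17 in glomus cells (adjusted p = 0.00193) and by 1.775 ± 0.17 in neuroblasts (adjusted p = 1.73e-06). The pericyte transcription factor gene Foxs1 rose in neuroblasts by 0.835 ± 0.19 (adjusted p = 0.00385). Over arrays, this list followed Myl9 (r = 0.837, rho = 0.814, exact permutation adjusted p = 0.0258 and 0.0219) and Tagln (r = 0.787, rho = 0.747, adjusted p = 0.0258 and 0.0219), as it did Mcam above. Without the 2 farthest arrays these r were 0.689 and 0.768. With Pdgfrb its r was 0.909 and its rho 0.779, which passed by Pearson's r alone (exact permutation adjusted p = 0.0446 and 0.092), with 0.701 without the 2 farthest arrays.

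Among 24 measured contractile and cytoskeletal genes of smooth muscle, 5 rose and 5 fell with hypoxia in glomus cells, and 7 rose and 6 fell in neuroblasts, with a median of 0.34 and 0.24. Of all probes 18.9% and 32.1% passed in these comparisons, with a median of 0.17 and 0.25. Actn1, the actin cross-linker alpha-actinin, was at 8.68 ± 0.27 in normoxic and 7.78 ± 0.18 in hypoxic glomus cells, and at 10.305 ± 0.27 in normoxic and 7.36 ± 0.63 in hypoxic neuroblasts. It fell by 0.90 in glomus cells (adjusted p = 0.019) and by 2.94 in neuroblasts (adjusted p = 7.45e-07), and its interaction of -2.04 ± 0.36 passed (adjusted p = 0.0462), as the one gene of this list. Synpo2, an actin-bundling gene, was lower in neuroblasts in normoxia (-1.15 ± 0.16, adjusted p = 0.000415) and in hypoxia (-0.84 ± 0.16, adjusted p = 0.0264), and fell by 0.985 with hypoxia in glomus cells. Csrp1, a smooth muscle LIM protein gene, was higher in neuroblasts in normoxia (1.65 ± 0.39, adjusted p = 0.0327). Flna, which cross-links actin filaments, fell by 1.92 ± 0.33 in hypoxic neuroblasts (adjusted p = 0.000289).

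Tpm2, which encodes beta-tropomyosin, is named here after its values were seen. In its list 5 genes rose and 5 fell in glomus cells, and 7 rose and 6 fell in neuroblasts. Its values and p-values are therefore an example and no separate evidence. It was at 5.04, 4.39, 4.08 and 4.46 in normoxic and 6.52, 6.08, 5.35 and 6.19 in hypoxic glomus cells. In neuroblasts it was at 4.82, 6.41, 4.20 and 4.82 in normoxia and at 6.66, 7.36, 6.55 and 8.94 in hypoxia. In neither population did a hypoxic value lie within the normoxic range, and the highest arrays of the neuroblast groups were again normoxic neuroblast 2 and hypoxic neuroblast 4. Tpm2 rose by 1.54 ± 0.48 in glomus cells (adjusted p = 0.0325) and by 2.315 ± 0.48 in neuroblasts (adjusted p = 0.00165).

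Of 17 measured genes of contraction signalling and serum response factor, none passed between the populations in normoxia, where 5 had an unadjusted p under 0.05, or in hypoxia, where 1 did. With hypoxia 2 rose and 4 fell in glomus cells, and 2 rose and 6 fell in neuroblasts, against 18.9% and 32.1% of all probes passing. Rhoa, the small GTPase that sustains contraction, fell by 1.37 ± 0.23 and 1.41 ± 0.23 (adjusted p = 0.000557 and 0.000233). Rock1, the kinase it activates, rose in glomus cells by 1.32 ± 0.17 (adjusted p = 7.07e-05). Elk1, a partner of serum response factor, fell by 1.51 ± 0.28 and 1.5 ± 0.28 (adjusted p = 0.000961 and 0.000597). Kcnma1, the calcium-activated potassium channel gene, fell by 1.40 ± 0.20 in neuroblasts (adjusted p = 4.86e-05). Srf, whose promoter is shown above, is also named after its values were seen. It was at 7.54, 6.95, 8.19 and 7.57 in normoxic glomus cells and 6.62, 6.90, 7.16 and 7.43 in normoxic neuroblasts. In hypoxia it was at 7.18, 7.12, 7.38 and 6.45 in glomus cells and at 5.86, 5.84, 6.55 and 6.40 in neuroblasts. It fell by 0.865 ± 0.27 in neuroblasts (adjusted p = 0.0225), all of whose hypoxic values were under the normoxic ones, and differed by -0.53 in glomus cells (adjusted p = 0.189).

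Of 28 measured genes of the signals that recruit mural cells, 1 was higher and 2 were lower in neuroblasts in normoxia, and none passed in hypoxia, where 5 had an unadjusted p under 0.05. Of all probes 1.82% and 0.283% passed in these comparisons. Pdgfa, a ligand of the platelet-derived growth factor receptors, was at 6.89 ± 0.15 in glomus cells against 5.34 ± 0.25 in neuroblasts (difference -1.545 ± 0.16, adjusted p = 3.03e-05), and with hypoxia it rose in neuroblasts by 1.095 ± 0.16 (adjusted p = 8.07e-05). Angpt2, which loosens the contact of endothelium and pericytes, was higher by 1.335 ± 0.21 in neuroblasts (adjusted p = 0.00152), and the growth factor gene Tgfb3 was lower by -1.535 ± 0.30 (adjusted p = 0.00957). With hypoxia none rose and 4 fell in glomus cells, among them Smad7, an inhibitor of the transforming growth factor beta pathway (-1.215 ± 0.26, adjusted p = 0.00317), Smad4 (-0.695 ± 0.16, adjusted p = 0.0061) and Tgfb3 (-1.275 ± 0.30, adjusted p = 0.0063). In neuroblasts 3 rose and 4 fell, the latter with Smad4 (-1.21 ± 0.16, adjusted p = 3.7e-05) and the receptor gene Tgfbr1 (-1.41 ± 0.25, adjusted p = 0.000399). With hypoxia 18.9% of all probes passed in glomus cells and 32.1% in neuroblasts, so these counts are under the background.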

How the data were processed

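RNA of 16 sorted samples was measured on Affymetrix rat gene arrays from 500 pg of total RNA each. The authors deposited 1 value per probe on a log2 scale, a base inferred from the range (0.87 to 13.33) and from the tool named in the submitters' processing notes, Transcriptome Analysis Console. Its version and the background correction, normalization and annotation steps were not given in the sources used here. Of 30429 probes, 18511 name 1 gene, 575 several and 11343 none, and none was taken from the latter 2 kinds. Groups follow the sample titles.

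Values were used as deposited, without a filter. limma 3.58.1 in R 4.3.3 was fitted with 1 mean per group (12 residual degrees of freedom), 5 two-sided comparisons and Benjamini-Hochberg adjustment over all probes. Correlations of deviations from group means were tested by exact permutation within groups (331776 orders, scipy 1.17.1). Scripts were tested on simulated data. With Acta2 not measured, 21 pairs were formed. Named genes were the lowest-p genes per list and comparison among those passing (3 at most), with Th as a reference and Srf and Tpm2 added after their values were seen; likeness took the 6 highest correlations. The members and lists were chosen with earlier results of these data known, as was leaving out normoxic neuroblast 2 and hypoxic neuroblast 4 together. The number of arrays limits the precision. Alternatives were another scaling, a filter on dim probes, an intensity trend, array weights, other sets of arrays, a replicate block, probe averages and other thresholds.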

Additional observations from a re-analysis of the deposited data

Results flagged for a closer look

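Over the 28 sets of 4 values (7 genes in 4 groups), 3 held an array far from the others of its group by Dixon's test, where chance gives about 1 in 20 groups. Des was at 4.87 on hypoxic glomus replicate 2, above 4.71, 4.70 and 4.68 on the others. Myl9 was at 4.31 on normoxic glomus replicate 2, below 4.61, 4.56 and 4.56. Pdgfrb was at 8.42 on normoxic neuroblast replicate 2, above 6.09, 5.88 and 5.75, and the fibroblast list was also highest on that array.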

How the results depend on the processing

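Over 27 alternatives, 938 differences of the 7 genes were recomputed. Of these 895 kept direction and side of the threshold, 25 changed sign and passed in neither, 14 no longer passed, 4 passed newly and 0 changed direction as called results. The size of a difference could not change with other thresholds, with probe averages (1 probe per gene) or without an array outside the groups compared. Using only the normoxic or only the hypoxic arrays concerned the correlations alone. For hypoxia in glomus cells, 2 genes passed, and 0 did after centring each array, after quantile normalization or at an adjusted p under 0.01; leaving out single arrays gave 0 to 2. In the normoxic comparison of populations 1 gene passed, and 2 with array weights. Leaving out single arrays gave 1, 0, 2 and 0 genes in the other comparisons. Of 21 correlations 5 passed, against 1 after centring, 1 after quantile normalization, 0 within the normoxic arrays, 0 within the hypoxic arrays, 1 with both outlying arrays left out, and 2 to 5 with single arrays left out. Within the normoxic or the hypoxic arrays alone the orders are too few for a pair to pass easily. The cause of these changes was not tested.

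Deviations of same-numbered arrays had a median correlation of 0.05 over 24 pairs (range -0.10 to 0.20, 8 of 24 above 0.1). For other pairs the median was -0.01, with a range of -0.25 to 0.26. Whether same-numbered samples were paired was not tested. With the replicate block the counts of genes passing were 1, 0, 2, 2 and 0, as without it.

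Scaling moved the split of all probes with hypoxia. In glomus cells 2852 rose and 2892 fell as deposited, 1370 and 3783 after centring and 2215 and 2490 after quantile normalization. In neuroblasts these were 5596 and 4159, 1826 and 5464, and 3278 and 3701. Between populations in hypoxia, 42 were higher and 44 lower as deposited, 28 and 48 after centring and 79 and 72 after quantile normalization, and for the interaction 8 and 16, 0 and 11, and 15 and 14. Probes passing ranged over all alternatives at 0.05 from 347 to 1081 (555 as reported), 25 to 151 (86), 4096 to 9490 (5744), 6262 to 10826 (9755) and 11 to 83 (24), for the populations in normoxia, the populations in hypoxia, hypoxia in glomus cells, hypoxia in neuroblasts and the interaction.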
